A study of Mus musculus with 8 samples.

Results

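Foxp3, Il2ra, Ikzf2, Il10 and Izumo1r, 5 genes known for their use by regulatory T cells, were read out across immune and tumour cells of mouse liver tumours. All 5 were present among the 2000 genes of the deposited single-cell table, and they were chosen by name. Cells from tumours of Hepa1-6, a mouse hepatoma cell line, had been sequenced cell by cell on a droplet platform that reads the 3′ ends of transcripts. The 8 labelled entries form 4 groups: tumours labelled WT and tumours with Soat1 edited, each in animals injected intraperitoneally with PBS or with an antibody against PD-1, and each with a cDNA and an oligo entry that were taken as 1 sample. The editing is named a knockout in the titles and a knockdown in the genotype field, and the labels used here give no strain, age, number of animals or clone. The 53528 cells carry a number from 1 to 6 at the end of their names, which divides them into 6 sets, and nothing ties these sets to the 4 groups. The table was therefore treated as 1 sample, no genotypes or treatments were compared, and no p-value is given.

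Regulatory T cells are CD4 T cells that restrain other immune cells, and they depend on the transcription factor Foxp3. Il2ra encodes CD25, the chain that gives the interleukin-2 receptor its high affinity, and lets these cells bind and consume interleukin-2. Ikzf2 encodes Helios, a transcription factor of the Ikaros family, Il10 encodes a secreted cytokine that dampens myeloid and T cell responses, and Izumo1r encodes folate receptor 4, a surface protein used to mark regulatory T cells. None of the 5 is exclusive to them: Il2ra and Ikzf2 are also induced in activated or exhausted T cells, and macrophages can make Il10.

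In the mouse annotation GENCODE M21 (GRCm38), Foxp3 lies on chromosome X from 7573644 to 7595245, Il2ra on chromosome 2 from 11642807 to 11693193, Ikzf2 on chromosome 1 from 69531214 to 69687245, Il10 on chromosome 1 from 131019845 to 131024974, and Izumo1r on chromosome 9 from 14885814 to 14903949. The 250 bases before the RefSeq start of Foxp3 and of Il2ra, the transcription factor and the receptor chain, are shown because the RNAs of these genes were found in the same CD4 T cells. RefSeq promoter windows (GRCm38.p6) matched 3 of the 5 genes, Foxp3, Il2ra and Izumo1r, and not Ikzf2 or Il10. Both printed windows are on the plus strand, at chrX:7579426-7579675 and chr2:11642542-11642791. Capitals mark matches, on either strand, to the core of the TATA box, TATAAA, to the core bound by factors of the NFAT family, GGAAA, and to the NF-kB motif, in which GGGA is followed by any 4 bases and a closing CC.
Foxp3: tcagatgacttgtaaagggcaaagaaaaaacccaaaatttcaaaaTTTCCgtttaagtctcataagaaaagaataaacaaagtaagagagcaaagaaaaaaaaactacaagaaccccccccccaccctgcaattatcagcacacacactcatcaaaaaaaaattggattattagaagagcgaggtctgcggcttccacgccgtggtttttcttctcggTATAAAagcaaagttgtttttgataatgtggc
Il2ra: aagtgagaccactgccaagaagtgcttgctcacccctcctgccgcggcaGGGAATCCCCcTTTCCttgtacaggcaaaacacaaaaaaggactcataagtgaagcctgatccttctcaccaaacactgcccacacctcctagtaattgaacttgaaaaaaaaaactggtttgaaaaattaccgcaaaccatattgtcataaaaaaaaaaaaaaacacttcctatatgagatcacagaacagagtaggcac
Positions are counted back from the start. TATAAA stood at -32 of Foxp3, and 12.4% of 32851 windows of this length contain it. GGAAA was found at -205 of Foxp3 and at -190 of Il2ra, and in 55.6% of all windows. The NF-kB motif, in 17.6% of all windows, lay at -201 of Il2ra and did not overlap GGAAA. Of the 8 motifs searched the other 5 were not found in these 2 windows. They were the STAT motif TTCNNNGAA, contained in 7.02% of all windows, the RUNX motif TGTGGT, contained in 14.1%, the motif of GATA factors, AGATAA, contained in 9.99%, the forkhead motif GTAAACA, contained in 3.17%, and the CREB motif TGACG, contained in 17.8%. The window of a second RefSeq start of Foxp3 held GGAAA at -140, overlapped by the STAT motif at -139, and AGATAA at -47, and that of Izumo1r held GGAAA at -197 and the RUNX motif at -127. These matches describe letters only.

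Cells were assigned to classes by markers that include none of the 5 genes. T cells needed 3 of 5 T cell receptor complex genes (Cd3d, Cd3g, Trac, Trbc1, Trbc2), and were called CD4 T with Cd4 and no Cd8a or Cd8b1, or CD8 T in the reverse case. NK cells needed 2 of 8 NK receptor genes, macrophages all 3 C1q genes, dendritic cells 2 of 8 dendritic genes with class II genes, and hepatoma cells Afp and Alb. Over the 6 sets this gave 861 CD4 T cells (78 to 233 per set), 10189 CD8 T cells, 766 T cells with neither Cd4 nor Cd8, 385 NK cells, 2482 macrophages, 433 dendritic cells and 21122 hepatoma cells. The deposited values of set 1 are the natural log of 1 plus UMIs per 10000 UMIs of the cell, so its UMI counts could be recovered. They ranged from 1001 to 261833 UMIs per cell (median 11098.5), and levels below are UMIs of a gene in 1000000 UMIs of the class (CPM) in set 1 with 95% intervals that cover counting error only. Sets 2 to 6 hold values below 0, left by a further step that the sources used here do not describe, so for these only mean deposited values and shares of cells above 0.5 are given, and a difference between them is a difference of adjusted values.

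**Figure D1:**
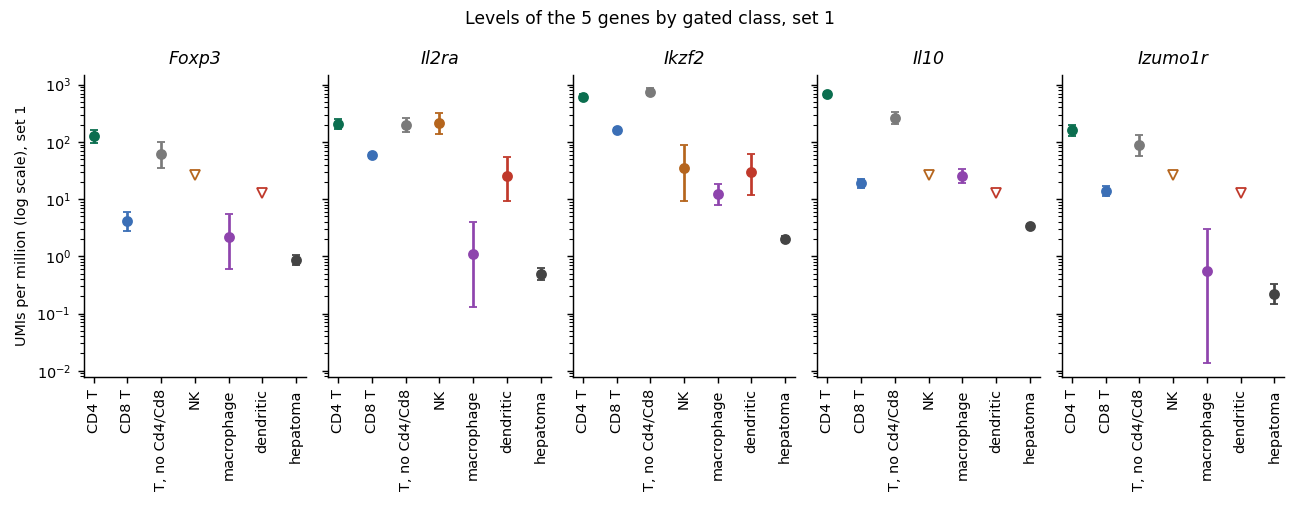
Levels of the 5 genes in set 1, in CPM on a log axis, by gated class; points are summed UMIs over summed totals, bars are 95% Poisson intervals, and open triangles mark the limit that a count of 0 allows (3 counts). Foxp3, Il10 and Izumo1r stand far higher in CD4 T cells than in CD8 T cells (124.6 against 4.18 for Foxp3), while Il2ra and Ikzf2 extend further into the other classes.

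All 5 genes were higher in CD4 T cells than in CD8 T cells, by 3.53-fold to 35.6-fold in set 1. A level at least 2-fold higher was found for 5 of the 5 genes, all with at least 20 UMIs, and for 12.8% of the 1073 genes tested in the same way. Mean deposited values were higher in CD4 T cells in 6 of 6 sets for each of the 5, which holds for 14.6% of all genes. The ratio was under 4 for Il2ra and Ikzf2, and over 10 for Foxp3, Il10 and Izumo1r.

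Foxp3 was counted 63 times in the 77 CD4 T cells of set 1, a level of 124.6 CPM (95.7 to 159.4), and 29 times in 991 CD8 T cells, 4.18 CPM (2.80 to 6.01). The ratio was 29.8 (18.9 to 48.0). At least 1 Foxp3 UMI was found in 33.8% of CD4 T cells (23.4% to 45.4%, Clopper-Pearson), and in 13.0% after every cell was thinned to 1000 UMIs. T cells with neither Cd4 nor Cd8 had a median depth of 2260.5 UMIs, against 4334 in CD4 T cells. A CD4 T cell in which Cd4 was missed would fall in this class, and their number was not tested. The class held 61.7 CPM, so that CD4 T cells were 2.02-fold higher (1.15 to 3.74). The mean deposited value of CD4 T cells was the higher in only 2 of the 6 sets. In set 1 itself the mean deposited value was also higher in CD4 T cells, 0.495 against 0.222. The direction between these 2 classes thus differed between sets, not between the 2 scales in set 1.

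T cells with both Cd4 and Cd8 (33 in set 1 at a median of 8847 UMIs, 405 over the sets) held 28.3 CPM of Foxp3 (12.2 to 55.8). By set, 11.8% to 23.5% of them were above 0.5. In CD8 T cells and in cells other than T cells Foxp3 was lower. Hepatoma cells, which should lack Foxp3, had a UMI in 2.23% of cells at a median of 20563 UMIs, against 2.42% of CD8 T cells at a median of 5279. After thinning, the shares were 0.0832% and 0.505%, from 4 and 5 cells, and the CD8 T level was 4.85-fold that of hepatoma cells (3.10 to 7.36). The macrophage level of 2.17 CPM came from 4 UMIs and could not be told apart from that of hepatoma cells (ratio 2.52, 0.674 to 6.63) or of CD8 T cells (CD8 T over macrophages 1.93, 0.676 to 7.54), and over the sets its mean value was above that of hepatoma cells in 6 of 6 and below that of CD8 T cells in 3 of 6. No Foxp3 UMI was counted in 34 NK cells or 43 dendritic cells, which allows up to 8.82% and 6.98% of cells with a UMI at their depth (3 counts) and sets no limit on cells that express the gene.

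Across the sets, the mean deposited Foxp3 value of CD4 T cells ran from 0.189 to 0.495 (median 0.244), and the share above 0.5 from 13.9% to 32.1% (median 17.7%). Set 1 was the highest on both. In CD8 T cells the mean ran from 0.0165 to 0.0261, below every CD4 T value, and the share from 1.01% to 2.23%. Over the sets there were 16 to 45 Foxp3-positive CD8 T cells per set, against 20 to 41 Foxp3-positive CD4 T cells.

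Il2ra, the interleukin-2 receptor chain, was found in every lymphocyte class. Its level was 205.6 CPM (168.0 to 249.2) in CD4 T cells, 200.7 CPM in T cells without Cd4 or Cd8 and 216.3 CPM in NK cells, and these intervals overlapped. The NK value rests on 25 UMIs in 5 cells, 15 of them in 1 cell, and was 97.6 CPM (46.8 to 179.4) without it. It was 46.4 CPM (9.57 to 135.6) with a stricter gate, below CD4 T cells at 200.4, 58.8 CPM (7.12 to 212.5) after thinning and 93.9 CPM as a mean over cells, so the level in NK cells was not settled. CD8 T cells held 58.3 CPM (52.7 to 64.2), 3.53-fold less than CD4 T cells (2.82 to 4.39), and with 404 UMIs in 177 cells they carried 54.0% of all Il2ra UMIs of the set. Dendritic cells followed with 25.3 CPM (9.27 to 55.0) from 6 UMIs in 3 cells, 4 of them in 1 cell, and 8.60 CPM without it. Macrophages, with 2 UMIs, were at 1.09 CPM, indistinguishable from hepatoma cells at 0.495 CPM (ratio 2.19, 0.260 to 8.26).

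The mean deposited Il2ra value in CD4 T cells was between 0.375 and 0.597 (median 0.434), in CD8 T cells between 0.142 and 0.183, and in dendritic cells between 0.122 and 0.271. Dendritic cells were higher than macrophages in 6 of 6 sets and higher than CD8 T cells in 5 of 6. The exception was set 1, where CD8 T cells were higher by mean value (0.183 against 0.122) and by CPM (ratio 2.31, 1.05 to 6.32). By the share of cells above 0.5, in contrast, CD8 T cells were higher than dendritic cells in 5 of 6 sets, with 10.8% to 16.9% against 5.04% to 13.7%. NK cells ranged from -0.0326 to 0.275 with 20 to 121 cells per set, so their place in this order was not fixed by these data.

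Ikzf2, encoding Helios, was the gene most often seen in CD8 T cells. It was found in 59.7% of CD4 T cells of set 1 and in 42.9% of CD8 T cells, or 33.8% and 14.1% after thinning. The levels were 605.0 CPM (539.2 to 676.8) and 163.1 CPM (153.7 to 172.9), a ratio of 3.71 (3.26 to 4.21). T cells without Cd4 or Cd8 stood at 752.5 CPM, above CD4 T cells (ratio of CD4 T cells to them 0.804, 0.670 to 0.967), and their mean deposited value was the higher in 5 of 6 sets. NK cells at 34.6 CPM and dendritic cells at 29.5 CPM did not differ beyond their intervals (ratio 1.17, 0.252 to 4.62). Macrophages had 12.5 CPM and hepatoma cells 2.03 CPM, with macrophages 6.15-fold higher (3.83 to 9.44). The mean deposited value ranged from 0.854 to 1.29 in CD4 T cells and from 0.512 to 0.604 in CD8 T cells, without overlap.

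Il10, the cytokine gene, was concentrated in few CD4 T cells. Its 343 UMIs lay in 24 of the 77 CD4 T cells, 66 of them in 1 cell and 165 in the 3 highest. The level was 678.2 CPM (608.3 to 753.9), and 556.2 CPM without the highest cell. CD8 T cells had 19.0 CPM (15.9 to 22.6), of which 1 cell gave 57 of 132 UMIs, and 10.8 CPM (8.52 to 13.6) without it. That cell, with 8 Cd8a UMIs and no Cd4 UMI, also held 2 Foxp3, 5 Ikzf2 and 1 Izumo1r UMIs. The CD4 T level was 35.6-fold that of CD8 T cells (29.1 to 43.9).

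Outside T cells Il10 was highest, among the classes described here, in macrophages. They had 25.5 CPM (18.7 to 33.9), from 47 UMIs in 23 of 442 cells, 7.53-fold the hepatoma level (5.45 to 10.2) and within error of CD8 T cells (CD8 T over macrophages 0.746, 0.531 to 1.06). Without their highest cell, with 12 UMIs, the level was 19.1 CPM. An Il10 UMI was found in 5.20% of macrophages and in 8.05% of the deeper hepatoma cells, or in 2.26% and 0.354% after thinning. In the sets, macrophages were above hepatoma cells in 6 of 6 and above CD8 T cells in 3 of 6. No Il10 UMI was counted in NK or dendritic cells of set 1. T cells with both Cd4 and Cd8 held 152.3 CPM of Il10 (110.3 to 205.2). T cells without Cd4 or Cd8 held 266.3 CPM, 2.55-fold less than CD4 T cells (1.96 to 3.35) in set 1, but CD4 T cells had the higher mean deposited value in only 3 of 6 sets.

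Izumo1r encodes folate receptor 4. Its level was 158.2 CPM (125.4 to 196.9) in CD4 T cells, 88.8 CPM in T cells without Cd4 or Cd8, and 14.0 CPM (11.3 to 17.1) in CD8 T cells, with a ratio of CD4 to CD8 T cells of 11.3 (8.30 to 15.4). It was found in 44.2% of CD4 T cells and 7.37% of CD8 T cells. It was not detected in NK or dendritic cells of set 1, gave 1 UMI in 442 macrophages, and stood at 0.224 CPM in hepatoma cells. The mean deposited value ran from 0.404 to 0.701 in CD4 T cells and from 0.0721 to 0.0995 in CD8 T cells.

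**Figure D2:**
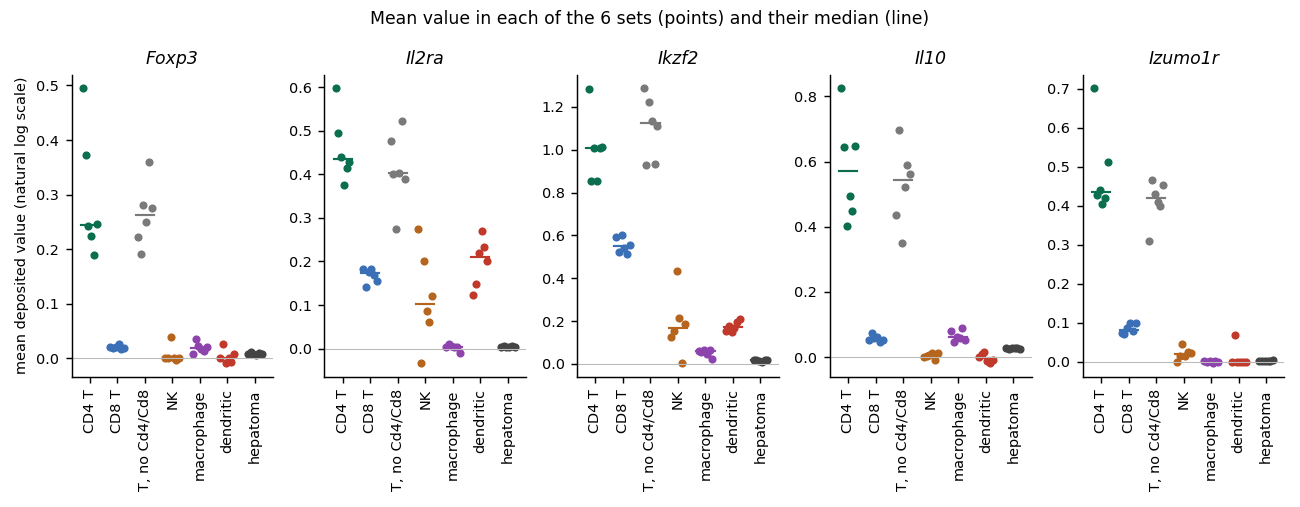
Mean deposited value (natural log scale, adjusted in sets 2 to 6) of each gene in each of the 6 sets, by gated class; points are sets and lines their median. For every gene all 6 CD4 T points lie above all 6 CD8 T points, and for Ikzf2 the T cells without Cd4 or Cd8 are as high as CD4 T cells.

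The genes were then compared within CD4 T cells, between the 26 cells of set 1 with a Foxp3 UMI and the 51 without. The other 4 genes were all about 3-fold higher in the Foxp3-positive cells. Il2ra stood at 359.7 against 104.7 CPM, a ratio of 3.44 (2.24 to 5.39), and Ikzf2 at 1024.2 against 330.5 CPM, a ratio of 3.10 (2.43 to 3.97). Il10 stood at 1139.1 against 376.3 CPM, a ratio of 3.03 (2.41 to 3.82), and Izumo1r at 279.8 against 78.5 CPM, a ratio of 3.56 (2.17 to 6.01). Thus 4 of 4 were at least 2-fold higher, as were 14.3% of the 475 genes tested, while 10.7% were at least 2-fold lower.

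Counted by cells, Il2ra was present in 17 of the 26 Foxp3-positive and 14 of the 51 Foxp3-negative cells, Ikzf2 in 22 and 24, Il10 in 17 and 7, and Izumo1r in 19 and 15. The Foxp3-positive cells were deeper (median 6981 against 3413 UMIs), and in cells of at least 3000 UMIs the 4 ratios were 3.22, 2.85, 3.2 and 3.47. With a stricter gate (17 against 26 cells) the ratio of Izumo1r was 1.46 with an interval that includes 1 (0.821 to 2.66), those of Ikzf2 and Il10 were 1.77 and 1.68, and that of Il2ra was 6.83. After thinning (10 against 67 cells) Il2ra at 1.34 (0.249 to 4.74) and Ikzf2 at 1.94 (0.894 to 3.87) had intervals that include 1, while Il10 and Izumo1r were at 4.08 and 6.09. Requiring 2 Foxp3 UMIs gave 2.18, 2.34, 1.48 and 1.74 for Il2ra, Ikzf2, Il10 and Izumo1r. A single Foxp3-negative cell held 66 of the 115 Il10 UMIs on its side, and the Il10 ratio was 6.92 (5.07 to 9.63) without it.

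The same split was repeated in each set on the deposited values, with 20 to 41 Foxp3-positive cells per set. All 4 genes were higher in the Foxp3-positive cells in 6 of 6 sets, as were 12.2% of all genes, and 8.15% were lower in all 6. Il2ra was above 0.5 in 56.0% to 83.3% of Foxp3-positive cells and in 19.1% to 33.8% of the others. Ikzf2 was above 0.5 in 80.0% to 100.0% against 28.9% to 45.3%, Il10 in 56.1% to 84.0% against 9.92% to 16.5%, and Izumo1r in 47.8% to 73.2% against 15.7% to 30.2%. For each of the 4 genes the 6 shares with Foxp3 lay above all 6 shares without it. These shares were not matched for depth.

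Many Foxp3-positive CD4 T cells held most of the other 4 genes together. Over the sets, 110 of 158 Foxp3-positive cells (69.6%) had at least 3 of the 4, with 56.5% to 79.2% by set, against 67 of 703 Foxp3-negative cells (9.53%), with 6.25% to 15.1% by set. All 4 were above 0.5 in 48 Foxp3-positive and 25 Foxp3-negative cells, and none of the 4 in 2 and 303. These counts were not matched for depth, and deeper cells show more genes. In set 1 the Foxp3-positive cells were the deeper (median 6981 against 3413 UMIs), and the part of depth in these counts was not tested. In CD4 T cells of set 1, Il10 and Izumo1r were the pair in which 1 gene most rarely went without the other: 21 of the 24 Il10-positive cells also had Izumo1r.

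**Figure D3:**
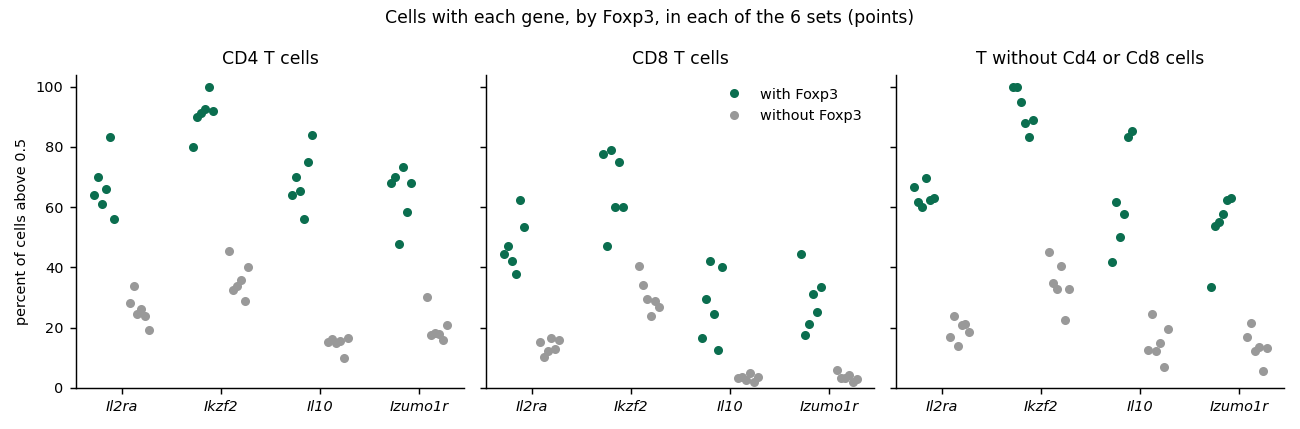
Percent of cells with a deposited value above 0.5 for Il2ra, Ikzf2, Il10 and Izumo1r, in cells with Foxp3 (green) and without (grey), for CD4 T cells, CD8 T cells and T cells with neither; each point is 1 of the 6 sets. In CD4 T cells the 2 colours do not overlap for any of the 4 genes, and in CD8 T cells Il10 lies between 12.5% and 42.1% with Foxp3.

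The few CD8 T cells with Foxp3 also had more of the other 4 genes. In set 1 (24 against 967 cells, median 10066 against 5253 UMIs) the ratio was 1.87 (1.23 to 2.75) for Il2ra, 2.87 (2.35 to 3.48) for Ikzf2 and 3.89 (1.99 to 7.02) for Izumo1r. The Il10 ratio of 25.9 rests on the 1 cell with 57 of 67 UMIs, and by cells Il10 was present in 3 of 24 against 46 of 967. In the sets all 4 were higher in 6 of 6, as were 5.75% of all genes, while 9.4% were lower in all 6. Il10 was above 0.5 in 12.5% to 42.1% of Foxp3-positive CD8 T cells, and in 56.1% to 84.0% of Foxp3-positive CD4 T cells.

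The split was also made in T cells with neither Cd4 nor Cd8. In set 1 (12 against 70 cells) Ikzf2 was 2.67-fold (1.98 to 3.59) and Il10 3.54-fold (2.14 to 5.85) higher with Foxp3, while the intervals for Il2ra (1.82, 0.944 to 3.37) and Izumo1r (1.45, 0.467 to 3.84) included 1. In the sets all 4 were higher in 6 of 6, as were 5.7% of all genes (5.45% were lower), with Ikzf2 above 0.5 in 83.3% to 100.0% of the Foxp3-positive cells.

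CD4 T cells with Il10 and without Foxp3, a split made after values were seen, numbered 103 over the sets (8 to 30 per set). Several genes of the regulatory program were higher in them than in CD4 T cells with neither gene: Ikzf2, Izumo1r and Il2ra had higher mean values in 6 of 6 sets, with median differences of 0.81, 0.78 and 0.32, where 3.3% of all genes were higher in all 6. Maf (1.16), Ctla4 (1.41), Gzmb (0.76), Klrg1 (0.71), Tnfrsf9 (0.71), Areg (0.62), Tnfrsf4 (0.57), Tnfrsf18 (0.55) and Nt5e (0.38) were also higher in 6 of 6. Other genes of the regulatory list described below did not all follow. Icos, Il2rb and Havcr2 were higher in 5 of 6 sets, and Batf, Lrrc32 and Socs2 in 4. Il1rl1 and Itgae were higher in 3, Gata3 in 2 and Cd83 in 1. Penk and Pdcd1, also of the regulatory list, and Tnfsf11, Tnfsf8, Cd40lg, Cd200, Csf2 and Tnf were lower in 6 of 6, as were 7.1% of all genes. A cell without a Foxp3 UMI may still express the gene, which these counts cannot tell.

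Other genes of the regulatory program were taken from a list of 36 genes, of which 20 were in the table and 18 had at least 20 UMIs. At least 2-fold higher in Foxp3-positive CD4 T cells were 6 of the 18, and 2 were at least 2-fold lower, against 14.3% and 10.7% of all genes tested. The median log2 ratio (with 10 CPM added) was 0.72, against 0.13 over all genes tested. Klrg1, an inhibitory receptor of effector lymphocytes, was highest with 464.6 against 49.1 CPM, a ratio of 9.47 (5.45 to 17.6). Gzmb, a cytotoxic granule protease, had 2018.4 against 261.8 CPM, a ratio of 7.71, but 311 of its 404 UMIs came from 1 cell, and the ratio was 1.96 (1.44 to 2.67) without it. That cell also held 5 Foxp3, 51 Il10 and 110 Ctla4 UMIs and no Cd8a UMI.

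Il1rl1, the receptor of interleukin-33, was 5.50-fold higher (1.97 to 18.9) from 18 and 5 UMIs. The other 3 genes past 2-fold, named after their values were seen, were Tnfrsf9 at 2.35, Tnfrsf4 at 2.33 and the checkpoint receptor Ctla4 at 2.17 (1.91 to 2.47), which was 1.94 without its highest Foxp3-positive cell. In the sets, Klrg1, Gzmb, Tnfrsf9, Tnfrsf4 and Ctla4 were higher in 6 of 6, as were 12.2% of all genes, and Il1rl1 in 5 of 6. The lowest 3 of the list were Penk, the enkephalin precursor, at 0.121 (0.0647 to 0.208), Pdcd1, encoding PD-1, at 0.288 (0.197 to 0.411), and Havcr2, encoding TIM-3, at 0.857 (0.538 to 1.34). Penk and Pdcd1 were lower in Foxp3-positive cells in 6 of 6 sets, as were 8.15% of all genes, and Havcr2 in 3 of 6. Areg, which encodes amphiregulin and was named after its values were seen, had a ratio of 1.29 (0.946 to 1.75), which was 0.855 (0.593 to 1.22) without the highest Foxp3-positive cell (32 of 81 UMIs) and 6.07 (3.69 to 10.5) without the highest Foxp3-negative cell (76 of 96 UMIs), so its direction rests on single cells.

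Genes of conventional and helper CD4 T cells stood lower in Foxp3-positive cells. Of 28 listed genes 19 were in the table and 13 had at least 20 UMIs, of which none was at least 2-fold higher and 10 were at least 2-fold lower, against 14.3% and 10.7% of all genes tested. The median log2 ratio was -1.81 (with 10 CPM added), or -2.09 with no addition and the gene at 0 placed at its bound. Il13 had 0 UMIs against 24, at most 0.191 times the level without Foxp3, with 18 of the 24 in 1 cell, without which the interval reached 1.27. Il21 had 1 UMI against 48 (ratio 0.0318, 0.000789 to 0.186), and Tnfsf11, encoding RANKL, 12 against 114 (0.161, 0.0807 to 0.292). Ifng, encoding interferon gamma and outside the naming rule, stood at 179.9 against 883.5 CPM (0.204, 0.140 to 0.289), and 27 of its 36 UMIs in Foxp3-positive cells were in 1 cell, without which the ratio was 0.0547 (0.0248 to 0.105). Il21, Il13, Tnfsf11 and Ifng were lower in Foxp3-positive cells in 6 of 6 sets, as were 8.15% of all genes. The highest 3 tested genes were Klf2 at 1.76 (1.01 to 3.10), Tbx21 at 1.49 and Il7r at 1.15.

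**Figure D4:**
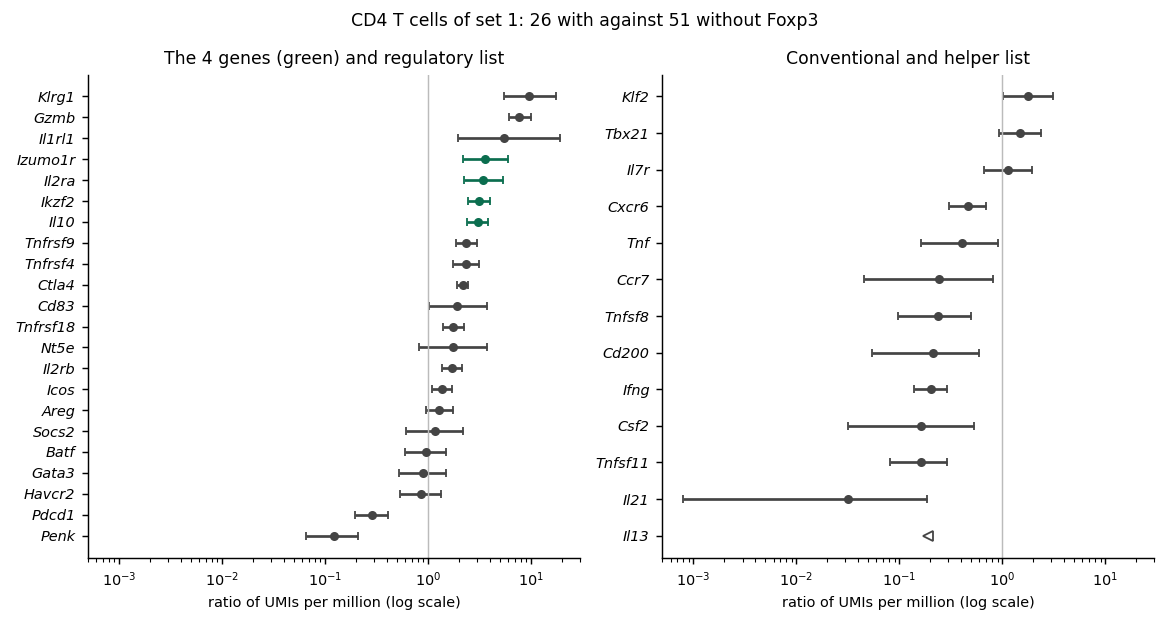
Ratio of CPM in CD4 T cells of set 1 with Foxp3 over those without, on a log axis, for the 4 genes (green), the regulatory list and the conventional and helper list; points are ratios, bars 95% intervals for counting error, and the open triangle is the upper bound of Il13, counted 0 times with Foxp3. Of the regulatory list 6 genes lie at 2 or above, and of the conventional list 10 lie at 0.5 or below.

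The partners of CD25 in the interleukin-2 receptor were less than 2-fold apart. Of 21 listed genes of this pathway 8 were in the table and 7 were tested, with none at least 2-fold higher and 1, Il21, lower, against 14.3% and 10.7% of all genes tested. The shared beta chain Il2rb was 1.71-fold higher (1.37 to 2.12), and the common gamma chain Il2rg was at 1.01 (0.751 to 1.35). Among the feedback inhibitors of cytokine signalling, Socs1 was at 1.80 (0.894 to 3.65), Socs2 at 1.16 and Socs3 at 1.01, and the intervals of all 3 included 1. By mean deposited value Il2rb, Socs1 and Socs2 were higher with Foxp3 in 6 of 6 sets, as were 12.2% of all genes. Il7r was higher in 5 of 6, and Il2rg and Socs3 in 4 of 6. Il4, with 0 against 11 UMIs, had too few for the test.

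Of 14 genes listed for the interleukin-10 pathway 4 were in the table and 2 were tested. Of these 1, Maf, was at least 2-fold higher and none lower, against 14.3% and 10.7% of all genes tested. Maf, a transcription factor that drives Il10 in T cells, stood at 999.2 against 392.7 CPM (2.54, 2.02 to 3.22) and was higher in 6 of 6 sets, as were 12.2% of all genes. Il1rn, the interleukin-1 receptor antagonist, had 9 UMIs in 4 Foxp3-positive cells and 0 in the others, with a lower limit of the ratio of 3.01 (1.95 without the highest cell), and was higher in 4 of 6 sets. Of 14 listed relatives of the 5 genes 3 were in the table and 2 were tested. None was 2-fold higher or lower, against 14.3% and 10.7% of all genes tested, and 2 genes are too few to compare with these shares. Ikzf1, the Ikaros gene, was at 0.976 (0.636 to 1.48) and Ikzf3, the Aiolos gene, at 1.95 (1.01 to 3.84). By mean deposited value Ikzf3 was higher in 6 of 6 sets, as were 12.2% of all genes, and Ikzf1 lower in 6 of 6, as were 8.15%.

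Ranked over the 305 genes with at least 20 UMIs in Foxp3-positive cells, Izumo1r was the 11th, Il2ra the 12th, Ikzf2 the 16th and Il10 the 18th highest by ratio (10 CPM added). Among the 10 genes above them were Klrg1, Gzmb, Ccr2, Prc1, Isg20, Ighm, Aurkb, Mxd1 and Nusap1. Ccr2, a receptor for inflammatory chemokines, had a ratio of 6.21 (4.11 to 9.68). Prc1, Aurkb and Nusap1 take part in mitosis, and had 25, 23 and 24 UMIs in Foxp3-positive cells.

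Ighm, an immunoglobulin gene, had 32 against 11 UMIs, in 10 and 6 cells. The summed level of 5 B cell markers was 174.9 CPM in Foxp3-positive and 45.8 CPM in Foxp3-negative cells, a range of 0 to 16.6 and 0 to 6.90 per 10000 UMIs over cells. Of these markers 2 of 5 and 3 of 5 were detected, and Cd79b was at 0 on both sides. Among genes with at least 20 UMIs in Foxp3-negative cells, the 10 lowest by the same ratio were Xcl1, Klrd1, Il21, Lgals7, Ccl1, Klrc1, Il13, Penk, Serpine2 and Ramp3. Xcl1, a chemokine, and Klrd1, an NK receptor chain, had 0 UMIs with Foxp3 against 44 and 41 without. Klrd1 was not particular to NK cells: in set 1 it was found in 73.5% of NK cells and 85.3% of CD8 T cells. The summed level of 8 NK markers came to 1 UMI with Foxp3 and 20 UMIs (65.4 CPM) without, where the highest cell reached 13.8 per 10000 and 2 of the 8 were detected. Cd8a and Cd8b1, which the gate limits, came to 0 UMIs with Foxp3 and 3 without. The part of NK or CD8 T cell RNA in these values was not tested.

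Over the 1183 T cells of set 1, the gene with the highest Pearson correlation of values with Foxp3 was Klrg1 (0.50), followed by Maf (0.47), Il10 (0.41), Asb2 (0.40) and Izumo1r (0.39). For Il10 it was Maf (0.58), for Izumo1r also Maf (0.49), for Ikzf2 Klrg1 (0.32) and for Il2ra Tnfrsf4 (0.32). Among the 5 genes the highest was that of Il10 with Izumo1r (0.43) and the lowest that of Il2ra with Ikzf2 (0.22). These cells come from 1 set and differ in depth, so the values are descriptive.

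Il2ra and Ikzf2 in dendritic cells belonged to different subsets, a split made after their values had been seen. Mature dendritic cells, with 2 of Ccr7, Fscn1 and Ccl22, numbered 194 (14 to 55 per set), and type 1 dendritic cells, with Xcr1 or Clec9a, 177 (12 to 52). Il2ra was above 0.5 in 10.9% to 30.0% of mature cells (median 15.8%) and in 0 of the type 1 cells of every set. Its mean deposited value was higher in mature cells in 6 of 6 sets, as for 8% of all genes. Ikzf2 was above 0.5 in 16.7% to 31.3% of type 1 cells (median 20.9%) and in 0 to 9.52% of mature cells, with a lower mean in mature cells in 6 of 6 sets, as for 15.7% of all genes. In set 1 the 6 Il2ra UMIs were all in 3 of 14 mature cells, and 5 Ikzf2 UMIs were in 5 of 25 type 1 cells. Smaller groups with Cd209a (29 cells) or Siglech (25 cells) had Il2ra in 3.45% and 0%, and Ikzf2 in 10.3% and 24%.

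T cell genes were also seen in these cells. Trbc2 was above 0.5 in 0 to 18.9% of mature and 0 to 17.3% of type 1 cells by set, Ctla4 in 0 to 21.6% and 0 to 23.1%, Cd4 in 0 to 7.14% and 1.92% to 8.33%, and Cd8a, which type 1 dendritic cells are known to express, in 0 to 11.9% and 15.4% to 37.5%. Their part in the Il2ra and Ikzf2 values was not tested.

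**Figure D5:**
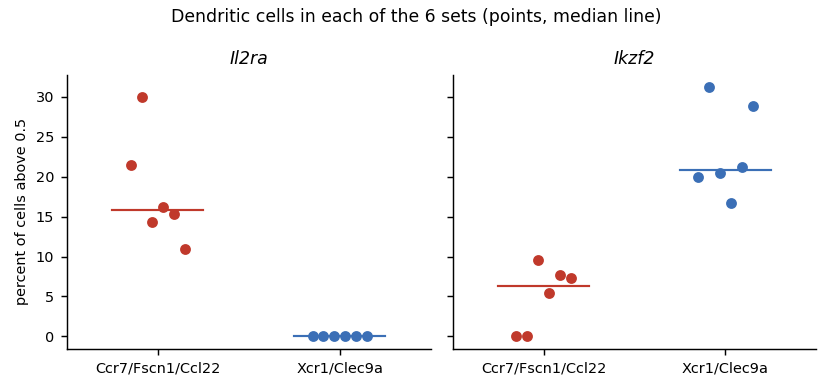
Percent of dendritic cells with a deposited value above 0.5 for Il2ra and Ikzf2, in mature cells (2 of Ccr7, Fscn1, Ccl22) and type 1 cells (Xcr1 or Clec9a); each point is 1 of the 6 sets and lines are medians. Il2ra lies between 10.9% and 30.0% in mature cells and at 0 in type 1 cells, and Ikzf2 is the reverse without reaching 0 in every mature set.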

How the data were processed

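The deposited table holds values on the natural log scale for 2000 genes and 53528 cells, made by the authors from UMI counts. The submitters' processing notes name STAR 2.7.2b, GRCh38 and mm10 without a role. None of the 53528 columns could be assigned to a labelled sample. The step behind values below 0 in sets 2 to 6 is not given in the sources used here. Cell names hold running numbers, not barcodes, so shared barcodes could not be counted.

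UMI counts of set 1 were recovered from the values (100% of nonzero values whole within 0.01). The 91 doublets called by Scrublet (scanpy 1.11.5; 0.971% of 9370 cells) were left out of set 1. A marker counted as present above 0.5. Cells of more than 1 class had none. Immune cells had at most 40 Afp plus Alb UMIs per 10000. Hepatoma cells had more than 40, changed from 100 after a first run that showed the genes' levels, where Foxp3 was 0.775 CPM in place of 0.863; the limit of 40 for immune cells was not changed.

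CPM had exact Poisson intervals, ratios exact conditional ones (scipy 1.17.1), and thinning went to 1000 UMIs. The code for ratios was run on simulated Poisson counts, with the same rate for all cells of a side. These lack the spread between cells seen here, so the run cannot show how the intervals hold for the real counts. Genes needed 20 UMIs to be tested. Named genes were the 3 highest and 3 lowest of each list, and the 10 highest and 10 lowest by ratio with Foxp3 (10 CPM added), of which 1 is not reported here. The members and lists were chosen with earlier results of these data known. How many markers a class needs was set after seeing their distributions. The dendritic subsets, the split by Il10, the depth of 3000 UMIs and the values without the highest cell were chosen after values were seen. After a first search of whole 300-base windows the motif search was limited to the 250 bases before the start, which left out an NF-kB match past a Foxp3 start, and the motifs in capitals were chosen after the matches were seen. The alternatives are in the closing section.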

Additional observations from a re-analysis of the deposited data

Results flagged for a closer look

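Of 25 combinations of gene and class tested over the 6 sets, 4 had 1 set far from the others. Chance gives about 1 in 20 if values are normally distributed, which was not tested. Ikzf2 in CD4 T cells had its highest mean value in set 1, 1.29 against 0.854 to 1.01 in the other sets. Izumo1r in CD4 T cells was also highest in set 1, 0.701 against 0.404 to 0.513. Foxp3 in NK cells reached 0.0388 in set 3, against -0.00367 to 0.00032 elsewhere. That set held 20 NK cells, 5% of them above 0.5, against 0% in every other set. Izumo1r in dendritic cells reached 0.0691 in set 2, against -0.0004 to 8.8e-06 elsewhere. There 3.92% of 51 dendritic cells were above 0.5, against 0% in every other set, so both values rest on very few cells. Set 1 is the set without values below 0, and the part of that step was not tested.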

How the results depend on the processing

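None of the 5 differences between CD4 and CD8 T cells over the sets, nor the ratios of the 4 genes by Foxp3, changed direction under the alternatives run, and 51 of 71 recomputed main values stayed within the interval, or within 1.5 times the count, of the value reported. The ratio of Foxp3 between CD4 and CD8 T cells stayed within its interval throughout. With a stricter gate the ratios by Foxp3 in CD4 T cells were 6.83 for Il2ra, 1.77 for Ikzf2, 1.68 for Il10 and 1.46 for Izumo1r, and 35 genes were at least 2-fold higher and 23 lower, against 68 and 51, with 329 genes tested in place of 475. After thinning to 1000 UMIs the share of CD4 T cells with Foxp3 was 13.0%, the ratios were 1.34, 1.94, 4.08 and 6.09 in the same order, and the counts were 28 and 25 of 138 genes. With 2 Foxp3 UMIs required the ratios were 2.18, 2.34, 1.48 and 1.74, and 42 genes were higher. The Il10 ratio was 2.17 when cells were gated by UMI counts, and 5.93 without the highest cell of each side, an alternative chosen after seeing the data. Apart from fewer cells and genes, the cause of these moves was not tested. Of 205 class levels 22 left their interval, and those of them that moved by over 1.5 times were Il2ra in NK cells (46.4, 58.8 and 93.9 CPM against 216.3, with a stricter gate, after thinning and as a mean over cells), Il2ra in CD8 T cells (38.7 CPM as a mean over cells) and Izumo1r in CD4 T cells (272.7 CPM after thinning and 237.3 as a mean over cells); Foxp3 and Izumo1r in macrophages and Ikzf2 in dendritic cells were at 0 after thinning. Without the highest cell of 1 side, 7 tested list genes with ratios between 0.888 and 1.29, among them Areg, Il7r (0.861) and Socs2 (0.86), passed to the other side of 1. List genes had no alternative but this one, and the dendritic subsets and the Il10 split had none. Of 45 differences between CD4 and CD8 T cells over the sets 5 moved, all larger with a marker threshold of 0.25, and leaving out any 1 set moved none by more than the SD over the sets. Of the 10 genes highest by ratio with Foxp3, 10 were shared when 1 CPM was added in place of 10, and of the 10 lowest 9. No paired analysis was possible because the sets are tied to no labelled sample or replicate; values by set were compared within each set. Where a share of cells stood in for a level, only its direction was compared. With 77 CD4 T cells in set 1, counting error limits every ratio by Foxp3.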
